A study of Drosophila melanogaster and Drosophila arizonae and Drosophila mojavensis with 18 samples.

Results

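Gene expression in whole larvae of *Drosophila arizonae* was compared between the 2 replicate sets of libraries, S1 and S2, that the sample names give for this species. The members are 6 of the 18 libraries of the series, 3 in S1 and 3 in S2, and each set holds 1 library from each of 3 diets, so that every S2 library was paired with the S1 library of the same diet. The other 12 libraries belong to *D. melanogaster* and *D. mojavensis*. The diets were high in protein and low in sugar (HPLS), equal in both (EPS), or low in protein and high in sugar (LPHS). Larvae of the third instar, raised from adults kept on banana-opuntia medium, were moved to a diet for a day before they were frozen, and each library is polyA RNA from the pooled larvae of a sample. No genotype, transgene or drug distinguishes the libraries in the labels.

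*D. arizonae* is a cactus-breeding fly and the sister species of *D. mojavensis*. Larvae of this stage feed heavily, and the ratio of protein to sugar in their food acts on growth and on the storage of fat and glycogen. The study worked with a pair of isofemale strains of the species, from different parts of Mexico. An isofemale strain descends from a single wild-caught female, so such strains differ by inherited variation. Neither the labels nor the methods say which set came from which strain, so strain, vial, day and library preparation cannot be told apart as what separates S1 from S2. The labels do not say that the libraries of a set came from separate cultures beyond the diets, and the p-values measure only the spread between these samples. In a whole larva, fewer cells of a type and less RNA per cell cannot be told apart.

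The table holds 11060 genes under XLOC identifiers, which Cufflinks numbers for assembled transcripts, and does not pair them with gene names. The study's text names some XLOC identifiers, but its numbers run past the highest in this table, so they may belong to other gene models and were not used to name genes. The larval tissue was therefore not checked against marker genes, and genes are given by identifier for a few and by counts for the rest. Library totals ran from 10860286 to 13272137 fragments in S1 and from 9156029 to 11775539 in S2, so the ranges of the sets overlapped. The 10 most abundant genes took 14.8% to 18.0% of a library. Between 360 and 442 genes were listed at 0 in a library. An exact 0 may be a failed estimate in these values, which was not tested. Genes listed at 0 in part of a set are described further on.

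After genes with low values were left out, 9696 genes were tested. The sets were the main axis of difference among the 6 libraries. The first principal component carried 52.4% of the variance and placed the S1 libraries at -35.8 (HPLS), -34.1 (EPS) and -34.7 (LPHS) and the S2 libraries at 38.1, 36.4 and 30.2. The second component carried 21.1% and ordered the diets from HPLS through EPS to LPHS in both sets, at -21.7, -11.4 and 30.3 in S1 and at -25.9, 1.02 and 27.7 in S2. Pooled over all genes tested, the set took 52.2% of the sum of squares, the diet 28.5% and the remainder 19.3%. As medians over genes, the shares were 33.3% for the set, 29.0% for the diet and 19.2% for the remainder. The shares of set and diet were thus closer in a typical gene than in the pooled sum, to which genes with large differences add most. The shares are not divided by degrees of freedom, of which the diet and the remainder have more than the set. Near shares therefore do not mean effects of like size. Per degree of freedom, the set had the largest mean square of the 3 in 5378 genes (55.5%), the diet in 2637 (27.2%) and the remainder in 1681 (17.3%).

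**Figure D1:**
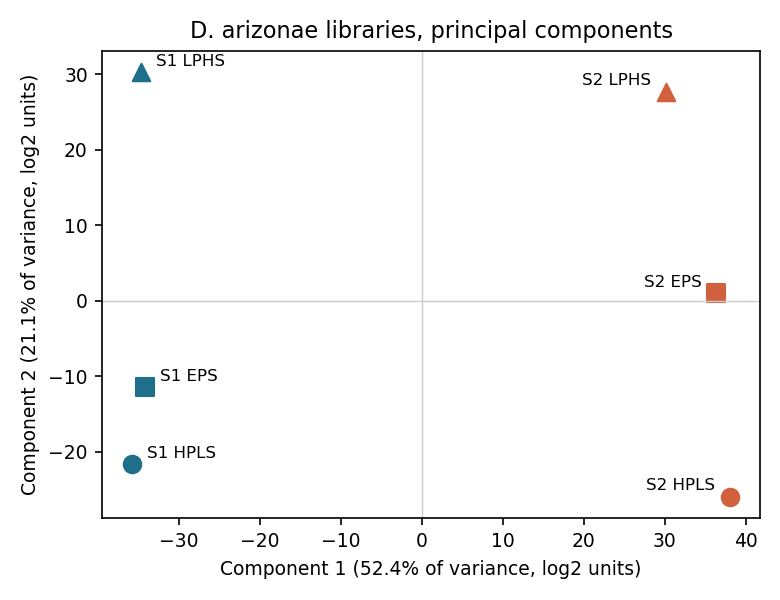
Principal components of the 6 *D. arizonae* libraries, from log2(normalized count + 1) of the 9696 genes tested. The x axis is component 1 (52.4% of variance) and the y axis component 2 (21.1%), both in log2 units. Colours mark the set and symbols the diet. The 3 S1 libraries lie at or below -34.1 on component 1 and the 3 S2 libraries at or above 30.2, and the diets are spread along component 2.

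The question of the set comparison was how far the replicates of a diet differed from each other. With the diet in the model, 975 genes differed between S2 and S1 (limma, adjusted p of at most 0.05), which is 10.1% of those tested. Of these, 445 (4.59% of those tested) were higher in S2 and 530 (5.47%) were lower. When libraries were scaled by their totals alone, 638 genes were higher and 436 lower in S2, so the larger share of lower genes depended on the scaling. The median difference of all genes, 0.01 on the log2 scale, was then 0.09. The called differences had a median of 1.03 on the log2 scale among genes higher in S2 and of -0.92 among genes lower in S2. Of the 975, 508 (52.1%) were under 2-fold, and the smallest was 0.48. The genes not called had a median size of 0.25.

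At 4-fold and 16-fold, more of the called genes were higher than lower in S2 under each of the 3 scalings, while at 2-fold the balance depended on the scaling. Among called genes, 467 differed by at least 2-fold (234 higher, 233 lower, and 226 and 239 with RLE scaling), 135 by at least 4-fold (81 higher, 54 lower) and 26 by at least 16-fold (21 higher, 5 lower). At least 2-fold in each of the 3 diets was met by 313 genes, 4-fold by 84 and 16-fold by 16, of which 14 were higher and 2 lower in S2. Only 5 of those 16 were above 0 in every library. These fold sizes are on the log2(value + 1) scale and understate the change of genes with low values.

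The share of genes called was lowest in the lowest and highest in the highest bin of expression level, a difference that was not tested. In 5 bins of equal size by mean level, the share called was 8.25%, 10.8%, 9.33%, 9.28% and 12.6% from the lowest to the highest bin. The median size of the called differences was 2.26 on the log2 scale in the lowest bin and 0.82 in the highest. The direction moved with the level and with the scaling. In the 2 lower bins 85 and 121 genes were higher in S2 against 75 and 88 lower, and in the 2 upper bins 67 and 85 were higher against 113 and 160 lower. With library totals only, the 2 lower bins had 107 and 175 higher against 78 and 74 lower, and the 2 upper bins 106 and 121 higher against 76 and 133 lower. As a share of all normalized counts, the genes called higher in S2 took 3.44% to 4.51% in the S1 libraries and 7.48% to 10.9% in the S2 libraries. The genes called lower in S2 took 9.23% to 9.33% in S1 and 4.82% to 5.41% in S2. These shares describe genes chosen by the same libraries.

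**Figure D2:**
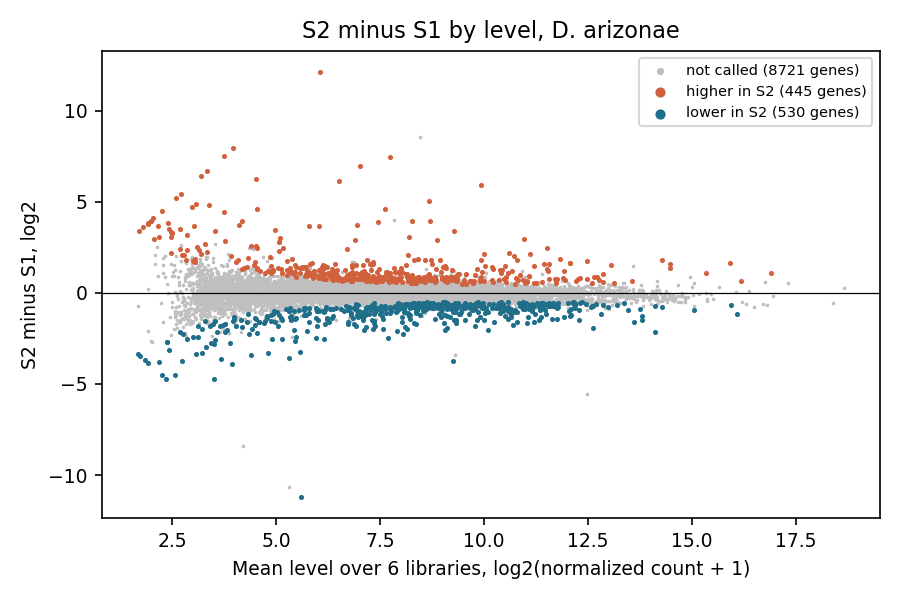
Difference S2 minus S1 (y axis, log2) against the mean level over the 6 libraries (x axis, log2 of normalized count + 1) for the 9696 genes tested. Each point is a gene, coloured where it was called higher (445) or lower (530) in S2, and grey where it was not called. Points beyond 7 on the y axis are mostly genes listed at 0 in a whole set, or in part of one, whose height depends on the pseudocount.

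The set difference was also read diet by diet. All 975 called genes had the same direction in every diet, against 5063 (52.2%) of all genes tested. In 886 of them (90.9%) the 3 S2 values lay wholly above or below the 3 S1 values, against 3140 (32.4%) of all genes. Both shares of the called genes follow largely from their choice on these libraries. Between the 2 libraries of HPLS the median size of the difference was 0.38 on the log2 scale, for EPS it was 0.33 and for LPHS 0.30. At least 2-fold differences were found in 1264 genes (13.0%) in HPLS, 1125 (11.6%) in EPS and 965 (9.95%) in LPHS, with 1 library on each side.

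The set differences in different diets share no library. Across the 9696 genes, Spearman's coefficient between them was 0.60 for HPLS and EPS, 0.52 for EPS and LPHS, and 0.38 for HPLS and LPHS. The same direction was found in 72.2%, 69.5% and 62.7% of genes. These are descriptions across genes, which are not independent replicates, and each coefficient shares the gene's abundance. The coefficient was lowest between the 2 outer diets.

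Each diet was also set aside in turn, and the genes called from the others were read in it, a reading added after seeing the data. The genes called from HPLS and EPS numbered 907, and 825 of them (91.0%) had the same direction in LPHS, where 67.2% of all genes did. The genes called from EPS and LPHS numbered 564, and 528 of them (93.6%) had the same direction in HPLS, against 69.9% of all genes. The genes called from HPLS and LPHS numbered 288, and 278 of them (96.5%) had the same direction in EPS, against 77.1%. In the diet set aside, the median difference in the direction of the call was 0.65 (LPHS), 0.95 (HPLS) and 1.63 (EPS) on the log2 scale, beside 1.09, 1.23 and 1.63 in the diets that made the call.

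**Figure D3:**
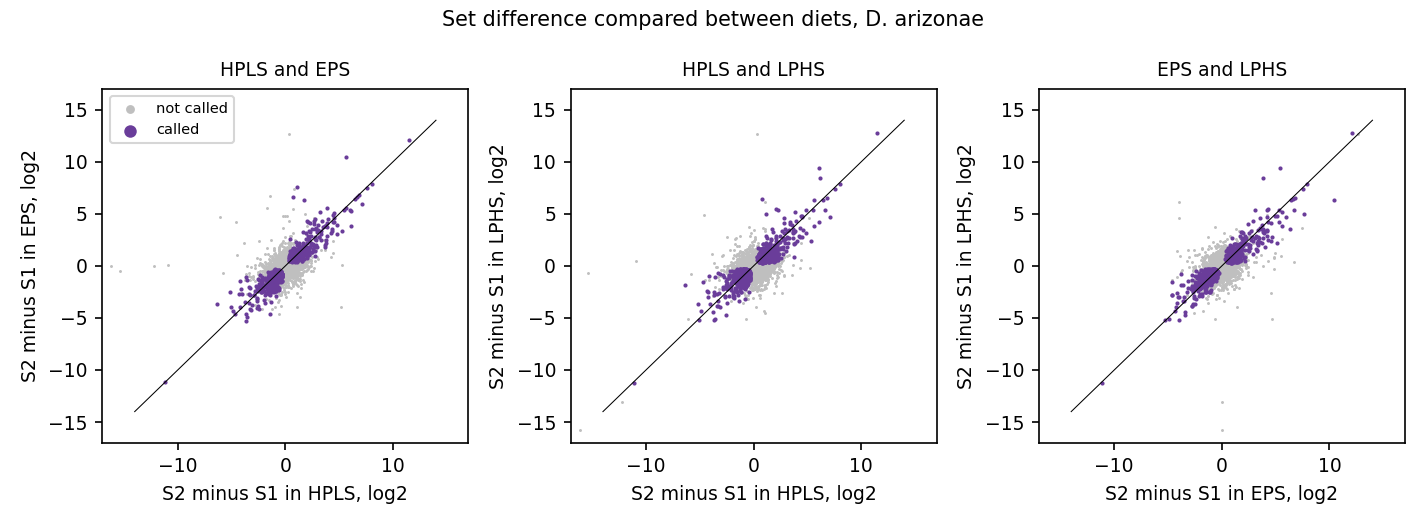
Difference S2 minus S1 (log2) in a diet against the same difference in another diet, for each pair of diets and the 9696 genes tested. Purple points are the 975 called genes, grey points the rest, and the line marks equal differences. Called genes lie in the same direction on both axes in every panel, and grey points far along a single axis are mostly genes listed at 0 in part of a set.

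The number of genes called depended on the libraries used. Without the S2 library of EPS 214 genes were called, without the S1 library of EPS 308, and without both 288. Without the S2 library of LPHS 614 were called, without the S2 library of HPLS 636, and without both HPLS libraries 564. With no diet in the model 748 genes were called, of which 675 were among the 975.

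Named genes were those with the greatest differences in each direction, with the same direction in all diets. XLOC_002706 was listed at 0 in the 3 S1 libraries and at 2622 (HPLS), 3750 (EPS) and 8262 (LPHS) fragments in S2. XLOC_002343 was listed at 0 in S1 and at 245, 199 and 275 fragments in S2. The values of XLOC_002706 and XLOC_002343 were not whole fragments in every library and are given rounded. XLOC_002202 was the reverse case, with 2588, 2112 and 2498 fragments in S1 and a listing at 0 in the 3 S2 libraries. In each of these 3 genes the sets did not overlap. They passed the filter on low values through the set where they are high and were chosen for their difference, so no p is given for them. No fold is given against a set listed at 0. XLOC_009171 had 36 (HPLS), 79 (EPS) and 70 (LPHS) fragments in S1 and 0, 4 and 1 in S2, so every S2 library was below every S1 library. Its difference on the log2(value + 1) scale was -4.72 ± 0.40 (SE, limma), and it was chosen in the same way.

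On/off genes were counted over the whole table, with no test, as listed at 0 in the 3 libraries of a set and at 10 fragments or more in each of the 3 of the other set. This held for 12 genes, of which 9 were listed at 0 in S1 and 3 in S2. All 12 were among the genes tested and called, which follows from how they were chosen. Their level in the set that had them ran from 10 to 8262 fragments in S2 and from 12 to 2588 in S1. Only 7 were at 30 fragments or more in every library of that set. Values were whole fragments in all libraries in 7 of the 12, which are not all the same genes. Of the 9 listed at 0 in S1, 5 carried consecutive identifiers, as a pair that includes XLOC_002343 and as a run of 3. With any value above 0 taken as present, 29 genes were listed at 0 in S1 and present throughout S2, and 22 were the reverse. In all, 224 genes were listed at 0 throughout S1 and 220 throughout S2, of which 132 were at 0 in all 6 libraries. By this rule, on/off genes were 12 of the 975 called.

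Some zeros fell within a set. In 7 genes 1 or 2 libraries of a set were listed at 0 while another library of that set held 100 fragments or more. Such zeros were found in S1 EPS for 4 genes, in S1 LPHS for 3 and in S2 HPLS for 2, and some genes had more than 1. The clearest case held 83275 fragments in S1 HPLS, 0 in S1 EPS and 57697 in S1 LPHS, and 0 in the 3 S2 libraries. Of the 7, 1 was called between the sets. The same kind of listing was seen in *D. melanogaster*, whose larval serum protein genes *Lsp1beta*, *Lsp1gamma* and *Lsp2* and mitochondrial ribosomal RNA gene *mt:lrRNA* were at 0 in the S2 HPLS library and at 81614 to 829319 fragments in the other 5. Larval serum proteins are storage proteins made in bulk by the fat body of feeding larvae. Whether the on/off genes of *D. arizonae* are of this kind was not tested.

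The set difference was then set beside the effect of diet. Between 2 libraries, the sets differed in more genes than the diets did. Differences of at least 2-fold between diets within a set were found in 4.04% to 9.60% of genes, against 9.95% to 13.0% between sets within a diet. The nearest values were LPHS-HPLS, at 9.40% in S1 and 9.60% in S2, and the set difference in LPHS, at 9.95%. By median size, LPHS-HPLS (0.32 in S1, 0.31 in S2, log2) was larger than the set difference in LPHS (0.30) and smaller than that in HPLS (0.38). EPS-HPLS was the smallest, at 0.19 and 0.21.

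**Figure D4:**
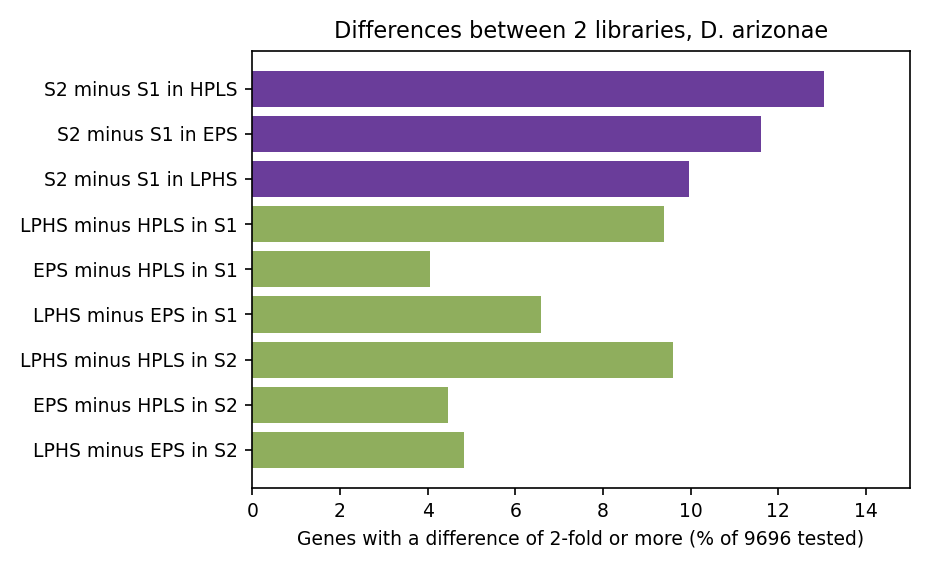
Share of the 9696 genes tested that differed by at least 2-fold between 2 libraries (x axis, percent), with a bar for each difference. Purple bars compare the sets within a diet (13.0%, 11.6% and 9.95%) and green bars compare the diets within a set (4.04% to 9.60%). Every purple bar is longer than every green bar, and each is from 1 library on each side, with no error.

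Diet differences were less alike between the sets than set differences were between the diets. LPHS-HPLS in S1 and in S2, which share no library, had a Spearman coefficient of 0.27 across genes and the same direction in 58.2% of them. For LPHS-EPS the values were 0.25 and 59.1%, and for EPS-HPLS -0.03 and 47.8%. LPHS-HPLS reached 2-fold in both sets and in the same direction in 277 genes (166 higher, 111 lower in LPHS), in opposite directions in 56, in S1 alone in 578 and in S2 alone in 598.

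The study compared the 2 replicates of a diet without the set in the model. Without the set, limma called 3 genes (0.0309%) for LPHS-HPLS, and 776 had an unadjusted p under 0.05. The number depended on the test, with 0 called by edgeR and 134 by DESeq2 without the set. The study used Cuffdiff and reported more genes for this contrast than the 3 of limma without the set, but fewer than the 134 of DESeq2. For the genes of its list that it assayed by RT-qPCR, the study reported the same direction. With the set as a replicate block, limma called 78 genes (0.804%), 32 higher (0.33%) and 46 lower (0.474%) in LPHS. That is more than the study reported. With library totals only, the block gave 111 higher and 59 lower, so both the number and the balance of these calls depended on the scaling. The 3 calls without the block fell to 0 on leaving out either LPHS library or the S2 library of HPLS. The set difference was larger than the LPHS-HPLS difference in 902 of the 975 genes called between sets (92.5%), in 3 of the 78 called between diets and in 54.0% of all genes. The first 2 shares follow in part from how the genes were chosen. The set difference averages over 3 diets and the LPHS-HPLS difference over 2 sets, so the diet difference has the larger standard error.

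Both lists held 27 genes, 2.77% of the genes called between sets and 34.6% of those called between diets. Of all genes tested, 0.804% were called between diets and 10.1% between sets. The comparisons use all the same libraries and the same residual spread of a gene, so the overlap is described and was not tested. Of the 27, 11 were higher and 16 lower in LPHS, and 20 were higher and 7 lower in S2. Their number ranged from 0, without the S2 library of LPHS, to 73, without the S1 library of HPLS, and was 2 without the S1 library of LPHS and 14 without the S2 library of EPS.

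Of these 27, the genes with the greatest rise and fall from HPLS to LPHS are given. XLOC_010143 had normalized counts of 5.27, 14.3 and 34.3 in S1 (HPLS, EPS, LPHS) and of 9.61, 50.6 and 87.3 in S2. It was higher in S2 in each diet, by 1.28 ± 0.29 (log2, SE, adjusted p = 0.0438, limma). It rose from HPLS to LPHS in both sets, by 2.77 ± 0.36 (adjusted p = 0.0358 with the replicate block and 0.451 without, limma). XLOC_003056 had 97.5, 160.2 and 589.2 in S1 and 32.0, 108.2 and 216.4 in S2. It also rose from HPLS to LPHS, by 2.65 ± 0.28 (adjusted p = 0.0214, 0.423 without the block, limma). It was, however, lower in S2, with a difference of -1.19 ± 0.22 (adjusted p = 0.027, limma). The S1 and S2 ranges of both genes overlapped, and the order of the sets showed only within a diet.

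XLOC_006146 fell most from HPLS to LPHS, from 365.6 through 192.0 to 33.3 in S1 and from 1040 through 434.0 to 54.8 in S2. The diet difference was -3.82 ± 0.23 (log2, SE, adjusted p = 0.00702 with the replicate block and 0.326 without, limma) and the set difference 1.13 ± 0.18 (adjusted p = 0.0193). XLOC_004717 fell from 790.9 through 443.2 to 138.0 in S1 and from 602.3 through 172.9 to 74.4 in S2. Its diet difference was -2.75 ± 0.24 (adjusted p = 0.0146, 0.345 without the block) and its set difference -0.88 ± 0.20 (adjusted p = 0.0431). The set call was lost on leaving out 2 of the 6 libraries in turn for XLOC_006146 and 4 for each of the other 3 genes, with adjusted p from 0.00866 to 0.25 over the 6 fits of the 4 genes (limma). The diet call with the block was lost on leaving out 3 of the 6 for XLOC_010143, 2 each for XLOC_003056 and XLOC_004717 and 1 for XLOC_006146, with adjusted p up to 0.164.

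**Figure D5:**
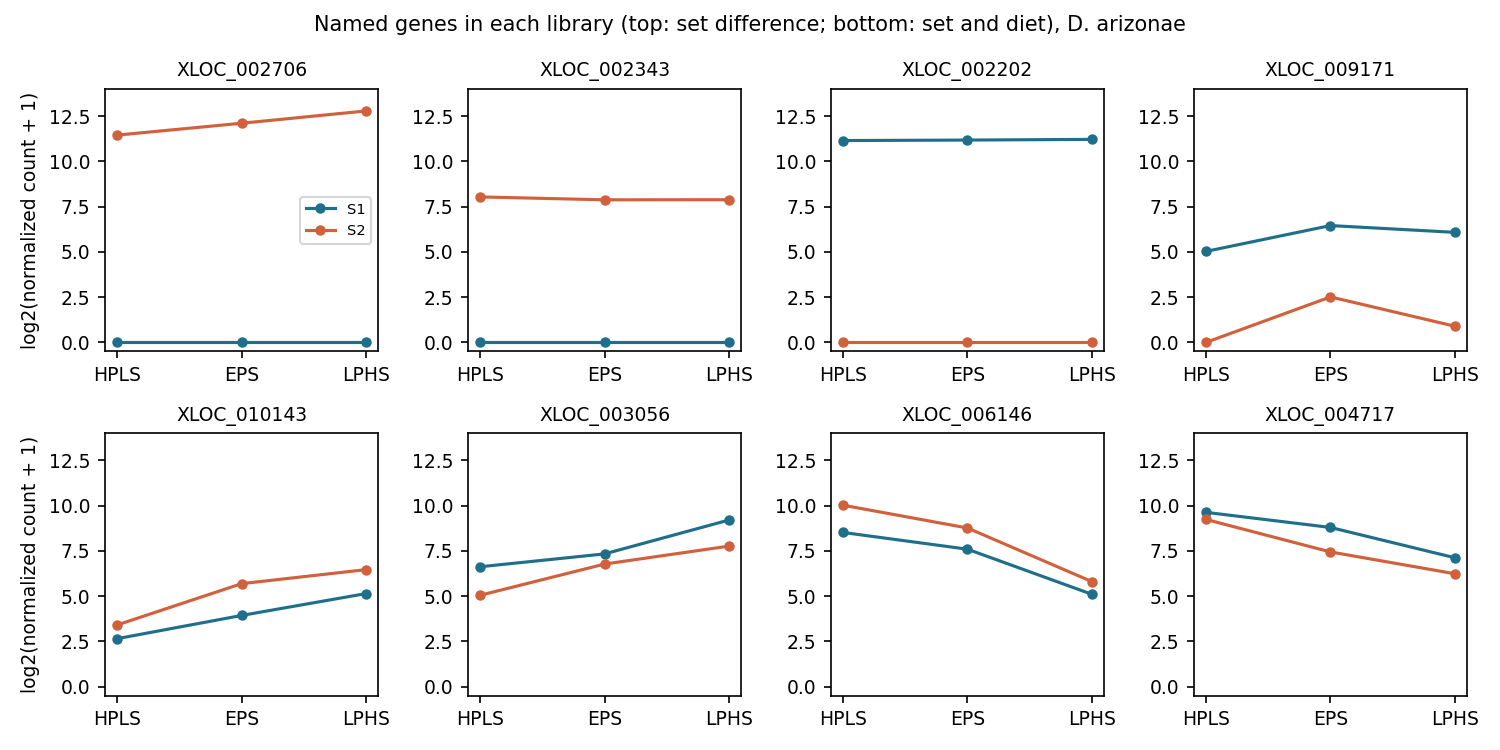
Level of the 8 named genes in each library, as log2(normalized count + 1), against diet. Each point is 1 library, with S1 in blue and S2 in orange, and lines join the libraries of a set. The upper genes differ between sets in every diet, and 3 of them lie at 0 throughout a set. The lower genes rise or fall from HPLS to LPHS in both sets, with the sets in the same order in each diet.

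A comparison free of shared libraries used the set difference in EPS and the LPHS-HPLS difference averaged over the sets. Across the 9696 genes, their Spearman coefficient was 0.09 and Pearson's was 0.04. Over all genes, the direction of the set difference thus hardly followed that of the diet effect. The sizes were less separate. In the 277 genes with a 2-fold diet effect of the same direction in both sets, the set difference in EPS had a median size of 0.66 on the log2 scale, against 0.33 in the other genes, and reached 2-fold in 34.7% against 10.9%. In the lowest level bin, which held 142 of the 277, the medians were 0.66 and 0.61. In the 4 bins above they were 0.59 to 0.73 against 0.25 to 0.35. In EPS, S2 was above S1 in 101 of the 166 genes that were higher in LPHS in both sets and in 48 of the 111 that were lower. The median set difference in EPS was 0.21 in the 166 and -0.26 in the 111 (log2). In these 277 genes the direction thus leaned with the diet effect, which was not tested.

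The set difference itself changed with diet in 59 genes (0.608%) by limma with the diets coded in order, and 1510 had an unadjusted p under 0.05. The difference S2 minus S1 rose toward LPHS in 15 (0.155%) and fell in 44, by a median size of 2.17 on the log2 scale from HPLS to LPHS. In 49 of the 59 its sign turned between HPLS and LPHS, in 6 it was larger in LPHS and in 4 smaller. Over all genes tested, the sign was the same in HPLS and LPHS in 62.7%. The LPHS-HPLS difference had opposite directions in S1 and S2 in 49 as well, of which 40 were among those whose set difference turned its sign. Over all genes tested, it had the same direction in both sets in 58.2%. The 59 were chosen for a change of the set difference from HPLS to LPHS, so both counts follow largely from that choice. None of the 59 was listed at 0 in any library. Of the 59, 6 were among the 975 called between sets, where 10.1% of all genes tested were called. This fit has 1 residual degree of freedom. With a minimum count of 50, no gene was called (smallest adjusted p = 0.079, 1283 with an unadjusted p under 0.05).

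Sets S1 and S2 also differed in the other species. In *D. melanogaster* 1948 of 12324 genes tested were called (15.8%), and in *D. mojavensis* 1288 of 9724 (13.2%). The first component carried 63.5% and 48.2% of the variance there, beside 52.4% in *D. arizonae*. Of the genes called between sets, 13.8% differed by at least 4-fold in *D. arizonae*, 14.3% in *D. melanogaster* and 6.60% in *D. mojavensis*. On/off genes numbered 12, 4 and 1, out of 11060, 17239 and 15180 genes. The gene models of *D. arizonae* were assembled from the study's reads, while FlyBase releases served for the other species. These counts therefore come from unlike gene sets, and from libraries of unlike depth. The genes were not matched between species, and the differences between species were not tested. Leaving out a library moved the count from 601 (without S1 HPLS) to 3745 (without S2 LPHS) in *D. melanogaster* and from 425 (without S1 EPS) to 2263 (without S2 HPLS) in *D. mojavensis*.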

How the data were processed

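PolyA RNA from whole larvae was sequenced as paired reads. The authors mapped the reads with TopHat2 and Bowtie2 to the first release of the *D. arizonae* genome, assembled gene models with Cufflinks and Cuffmerge, and ran Cuffdiff at its defaults; tool versions are not given in the sources used here. The deposited values are a scaled fragment signal per gene and library, not whole counts. In *D. arizonae* 76.3% to 76.9% of the values were whole multiples (within 0.01) of 1 step per library. A value divided by its step is called a fragment count here. Reads shared by near-identical or overlapping gene models cannot be assigned by these values.

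Values were scaled by TMM (edgeR 4.0.16), filtered by filterByExpr (minimum count 10) and tested as log2(value + 1) with limma 3.58.1 (trend, two-sided, R 4.3.3), Benjamini-Hochberg adjusted over all genes tested and called at 0.05. The set model held diet and set. The replicate numbers were checked for pairing. The S2 minus S1 differences of the diets correlated at 0.62, 0.55 and 0.62 (Pearson, across genes), each above 0.1, and the labels' replicate number is the source of the pairing. edgeR's quasi-likelihood test and DESeq2 1.42.0 on rounded fragments, other scalings, pseudocounts and filters, and each library left out were alternatives. The finding of the step and the set contrast were tested on simulated data, and the interaction on data simulated without one. The other comparisons and counts were not tested in this way. Named genes were the 2 with the greatest called difference in each direction with the same direction in all diets, and the 2 with the greatest rise and the 2 with the greatest fall among genes called for set and diet. The members, lists and rules were chosen with earlier results of these data known. The authors' own comparison tables of fold changes and p-values were not used.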

Additional observations from a re-analysis of the deposited data

Results flagged for a closer look

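The difference between S2 and S1 changed with the diet in 59 genes (limma, interaction of set and ordered diet, adjusted p of at most 0.05, smallest 0.0184), which is 0.608% of those tested. It fell toward LPHS in 44 of them and rose in 15. The S2 minus S1 difference in EPS lay between those in HPLS and LPHS in all 59, which a test of an ordered trend favours. Of the 49 whose diet difference had opposite directions in the sets, 10 reached 2-fold in both, and the choice of the genes favours opposite directions. The share of genes called was 0.648% among genes whose values were whole multiples of the step in all 6 libraries and 0.501% among the others. The count ranged from 0 to 81 over the alternatives.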

How the results depend on the processing

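The count of 975 genes between sets stayed within 1.5 times under RLE scaling (981), library totals only (1074), pseudocounts of 0.5 (952) and 5 (1012), no filter (945), a minimum count of 50 (830), edgeR (1004, of which 954 shared), DESeq2 (969, of which 802 shared), genes with whole values only (829), and without the 7 genes listed at 0 in part of a set (1010, chosen after seeing the data). It was 564 without both HPLS libraries and 288 without both EPS libraries, and 214 to 743 on leaving out a library. For LPHS-HPLS the replicate block gave 78 genes in place of 3, edgeR 0 (778 with an unadjusted p under 0.05), edgeR with the replicate block 121 (added after seeing the data), DESeq2 134, the replicate block with library totals only 170 (added after seeing the data), and leaving out a library 0 to 3. The genes called for both set and diet, 27, became 0 with no replicate block for the diet list, 60 with library totals only, 42 without the genes listed at 0 in part of a set, 41 with edgeR, 129 with DESeq2, and 0 to 73 on leaving out a library. The genes whose set difference changed with diet, 59, became 30 with library totals only, 29 with no filter and 0 with a minimum count of 50, and leaving out a library left no residual degrees of freedom. On/off genes, 12, became 36 with 3 fragments or fewer taken as off, 31 with 3 fragments taken as on and 7 with 30. The median set difference in HPLS became 0.34 with a minimum count of 50. With no diet in the model *D. mojavensis* had 429 genes, and leaving out a library gave 425 to 2263 there and 601 to 3745 in *D. melanogaster*. Of 180 single-gene refits, 156 kept their call, 24 lost it and none reversed. XLOC_002706, XLOC_002343, XLOC_002202 and XLOC_009171 kept theirs in all 15 refits each, which follows largely from their choice by size of difference. All 24 losses were in the genes called for both set and diet. The cause was not tested for any of these changes. The median gene held 136 to 186 fragments in a library, and each set has 3 libraries and each set and diet 1.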

Other observations

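Called genes were compared with the gene that carries the next identifier number. Where that gene was tested, it was also called higher in S2 for 34 of 402 genes higher in S2 (8.46%, beside 4.59% of all genes tested), and also called lower in S2 for 42 of 476 genes lower in S2 (8.82%, beside 5.47%). It was called in the opposite direction in 17 (4.23%) and 16 (3.36%). The longest run of consecutive identifiers called in the same direction held 4 genes in either direction, and runs of 3 or more numbered 4 among genes higher and 5 among genes lower in S2. The positions behind the numbers were not used here.

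Of the genes whose values were whole multiples of the step in all 6 libraries, 746 of 7101 (10.5%) were called between sets, 318 higher and 428 lower in S2. Of the other genes, 229 of 2595 (8.82%) were called, 127 higher and 102 lower.

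Among the 277 genes with a 2-fold LPHS-HPLS difference of the same direction in both sets, 59 (21.3%) were called between sets, beside 10.1% of all genes tested. Both measures use the same HPLS and LPHS libraries. The 78 genes called for LPHS-HPLS with the replicate block had a median diet difference of 1.63 and a median set difference of 0.45 on the log2 scale.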
